A study of Mus musculus with 30 samples.

Results

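C7 is the gene for complement component 7, and its RNA level was followed through 30 colon libraries from C57BL/6J mice, 6 animals in each of 5 groups. The groups were females and males on a control diet with vehicle (CD F and CD M), females and males on a high fat diet with vehicle (HFD F and HFD M), and males on the high fat diet given 17β-estradiol (HFD+E2 M). Mice entered the study at 5 to 6 weeks of age. The diets lasted 13 weeks, and vehicle or E2, at 0.5 mg per kg body weight, was injected into the peritoneum 9 times over the last 3 weeks. The females kept their ovaries, and per the study their cycle was not monitored. E2 was given only to males on the high fat diet among these libraries, so its effect under the control diet cannot be read. C7 was 1 of 46078 genes in the count table, matched by its name and by its identifier, ENSMUSG00000079105.

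C7 appears to have been selected on its difference between CD F and CD M in an earlier reading of these data. In that comparison it ranked 8 among all genes tested by size of decrease in females. Those values are therefore given as a description with no test. The comparisons of HFD F with HFD M and of E2-treated with vehicle-treated HFD males use other animals. Whether those animals also played a part in the choice could not be checked. The comparisons with CD F or CD M, and the interaction of sex and diet, share libraries with CD F against CD M.

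Complement is a cascade of plasma proteins that is started by the classical, lectin or alternative pathway. All routes cleave C3 and then C5, and the larger C5 fragment gathers C6, C7, C8 and several copies of C9 into the membrane attack complex, a pore in the target membrane. C7 is the subunit that lets the growing complex attach to the lipid bilayer. Most complement proteins in plasma come from the liver, whereas C7 is also made by stromal cells and leukocytes of other tissues. Estradiol acts on cells through the nuclear receptors ERα and ERβ, which bind DNA at estrogen response elements or are tethered to other factors.

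The gene lies on the minus strand of chromosome 15, at 4988762 to 5063773 in the deposited tables (GRCm38). The GENCODE M21 annotation gives it 18 exons in 1 transcript. The snRNA gene Gm25652 sits within C7 on the opposite strand and was listed at a mean of 0 TPM in 4 groups and 0.247 TPM in HFD+E2 M. The 250 bases before the RefSeq start of C7 (GRCm38.p6, chr15:5063774-5064023, minus strand) are shown because a steroid was among the treatments. Capitals mark the only GGTCA, a single arm of an estrogen response element, which begins 71 bases before the start of the gene.
C7 promoter: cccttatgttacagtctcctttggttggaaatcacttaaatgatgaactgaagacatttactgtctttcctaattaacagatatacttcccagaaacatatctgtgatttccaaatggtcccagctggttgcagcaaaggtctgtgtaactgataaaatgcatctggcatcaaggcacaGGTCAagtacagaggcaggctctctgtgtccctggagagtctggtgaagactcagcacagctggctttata
GGTCA was searched on both strands and occurs in 35.2% of 32851 promoter windows of this length, so it does not set C7 apart. The full element, GGTCA followed after 3 bases by its reverse complement, was not found in this window and occurs in 0.0639% of windows. These matches are letters in a sequence, and no binding was measured.

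The libraries held 8667177 to 17243712 counts, with a median of 11530915.5, and C7 contributed at most 694 of them. Xist exceeded Ddx3y in 12 of 12 libraries labelled female, and the reverse held in 18 of 18 labelled male. The 12 colon epithelium markers summed to 5735 to 8795 TPM in every library. In 6 libraries, HFD F 1, 3, 4 and 5 and HFD M 2 and 4, a list of 10 genes of stratified squamous epithelium (keratins such as Krt13 and Krt14, with Trp63) summed to 95.1 TPM or more, against at most 10.3 TPM in the other 24. The colon has no squamous lining, and the anal canal does. For C7 and for the counts of complement genes, a call or count that changed without these libraries is given beside the result. As these are whole-tissue libraries, fewer C7-producing cells and less C7 RNA per cell cannot be told apart.

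C7 was a moderately expressed gene in males and close to absent in females. In CD M, the lowest, median and highest libraries had 21.8, 29.97 and 48.8 CPM (reads scaled to the size of the library), with a mean of 32.6 ± 10.997 (SD, n = 6). In HFD M they had 14.4, 22.6 and 31.1 CPM, with a mean of 23.4 ± 6.33 (SD, n = 6). In HFD+E2 M they had 11.5, 15.8 and 22.1 CPM, with a mean of 16.2 ± 3.68 (SD, n = 6). The 3 male groups thus ran in the order CD M, HFD M and HFD+E2 M, and each overlapped the next. In CD F the lowest, median and highest libraries had 0.493, 0.959 and 1.55 CPM, with a mean of 0.969 ± 0.399 (SD, n = 6). In HFD F they had 0.174, 0.842 and 1.92 CPM, with a mean of 0.884 ± 0.586 (SD, n = 6). No female library reached any male library, and the 2 female groups overlapped almost entirely. In raw counts, the females gave 2 to 25 reads per library, 64 in all in CD F and 64 in HFD F, and the males 125 to 694.

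**Figure D1:**
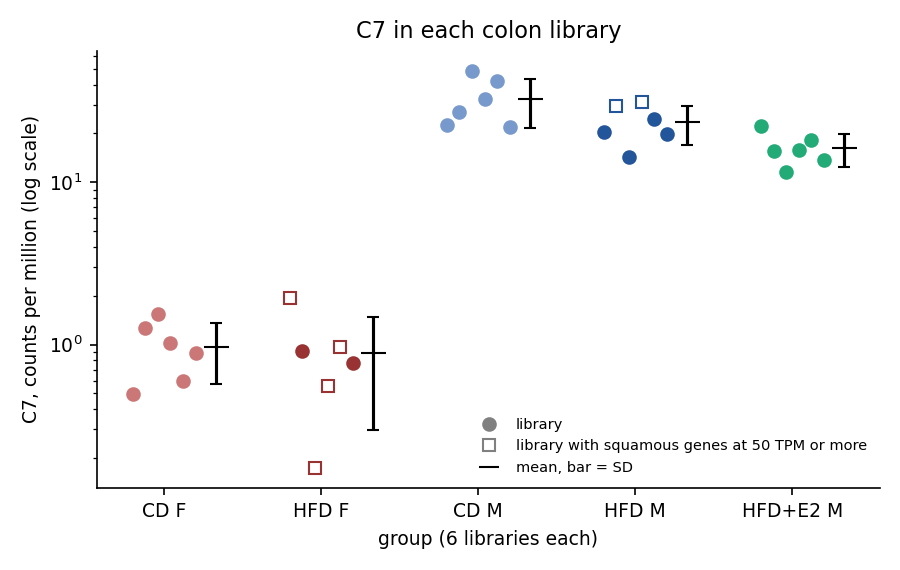
C7 in CPM (TMM-scaled, log axis) in each of the 30 libraries by group. Open squares are the 6 libraries with squamous genes at 50 TPM or more, and the black bar beside each group is the mean with its SD (n = 6). All 12 female libraries lie at or below 1.92 CPM and all 18 male libraries at or above 11.5 CPM; the 2 highest HFD M libraries are open squares.

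On the length-scaled TPM values of the authors, the mean of C7 was 14.95 ± 4.86 in CD M, 11.01 ± 2.86 in HFD M and 6.83 ± 2.36 in HFD+E2 M (SD, n = 6 each). C7 ranked 5227 of 26480 genes with a mean above 0 in CD M, 6677 of 26582 in HFD M and 8418 of 25791 in HFD+E2 M. In CD F the mean was 0.146 ± 0.232 TPM and in HFD F 0.211 ± 0.372 TPM (SD, n = 6 each), ranks 20429 of 26243 and 20143 of 27022. C7 was listed at 0 TPM in 2 CD F and 4 HFD F libraries, all of which held reads of C7 in the count table. For the same CPM, females had less TPM than males: the ratio of summed TPM to summed CPM was 0.150 in CD F and 0.238 in HFD F against 0.459 in CD M, 0.471 in HFD M and 0.422 in HFD+E2 M. The sex difference was thus wider in TPM than in counts, and folds are given from counts.

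The first question was whether C7 depends on sex. Under the control diet, CD F lay 33.6-fold below CD M in mean CPM, a log2 fold change of -5.03 ± 0.28 (SE) in edgeR. These values appear to have chosen the gene. C7 was 1 of the 1366 genes, 9.15% of 14922 tested, past the threshold of the study (unadjusted p below 0.05 and a log2 fold change beyond 0.4), and nothing is read from its place there. Under the high fat diet, in animals outside that comparison, HFD F lay 26.4-fold below HFD M, with a log2 fold change of -4.68 ± 0.35 (SE). This difference passed edgeR's quasi-likelihood test with a Benjamini-Hochberg adjusted p of 3.26e-06, and C7 was 1 of 15 genes below 0.05, 0.0988% of 15179 tested. At the threshold of the study, 3.09% were called. The exact two-sided permutation test gave p = 0.00216, the smallest that 6 against 6 libraries allow, and p = 0.00649 adjusted over the 6 comparisons tested. By size of decrease C7 ranked 7 among all genes tested in this comparison. Leaving out the 6 libraries with squamous genes gave -4.54 ± 0.36 (SE).

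E2-treated males kept a level of C7 far above that of females on the same diet. HFD+E2 M exceeded HFD F by a log2 fold change of 4.16 ± 0.31 (SE), with an edgeR adjusted p of 6.73e-07. Only 0.171% of 15182 genes had an adjusted p below 0.05 there, and 4.49% passed the threshold of the study. All 6 treated males lay above all 6 females, and the exact permutation test gave p = 0.00216.

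The second question was the effect of diet. In females, HFD F and CD F differed by a log2 fold change of -0.12 ± 0.42 (SE), with a 95% interval from -1.01 to 0.77 and an edgeR adjusted p of 0.9994. With 5 to 18 reads per library in CD F and 2 to 25 in HFD F, a change within that interval was not detectable at this depth. For comparison, 3.67% of 15061 genes passed the threshold of the study. In males, C7 fell by 0.48 ± 0.22 (SE) on the log2 scale from CD M to HFD M, from a mean of 32.6 to 23.4 CPM. This passed the threshold of the study, as did 2.9% of 14991 genes, with an unadjusted edgeR p of 0.0488, but not the adjusted one (adjusted p = 0.823). The study lists C7 among its immune response genes regulated by the high fat diet in males, with no direction given there. The exact permutation test gave p = 0.108. In 28 of the 36 pairs of a CD M and an HFD M library the HFD M library was lower, and 3 of 6 HFD M libraries lay below every CD M library. The call was lost when any of CD M 3, 4 and 5 or HFD M 1, 3, 5 and 6 was left out, with values from -0.33 to -0.50. It widened to -0.73 ± 0.24 (SE) without HFD M 2 and 4, the HFD M libraries with squamous genes, where the unadjusted edgeR p was 0.00886 and the adjusted p 0.761.

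The interaction of sex and diet, the diet effect in females less that in males, was 0.35 ± 0.49 (SE) on the log2 scale with a 95% interval from -0.65 to 1.35. Its edgeR adjusted p was 0.892, so the diet effects in the sexes were not shown to differ, and the interval is too wide to call them alike. The share of 15800 genes past the threshold of the study for the interaction was 5.18%.

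**Figure D2:**
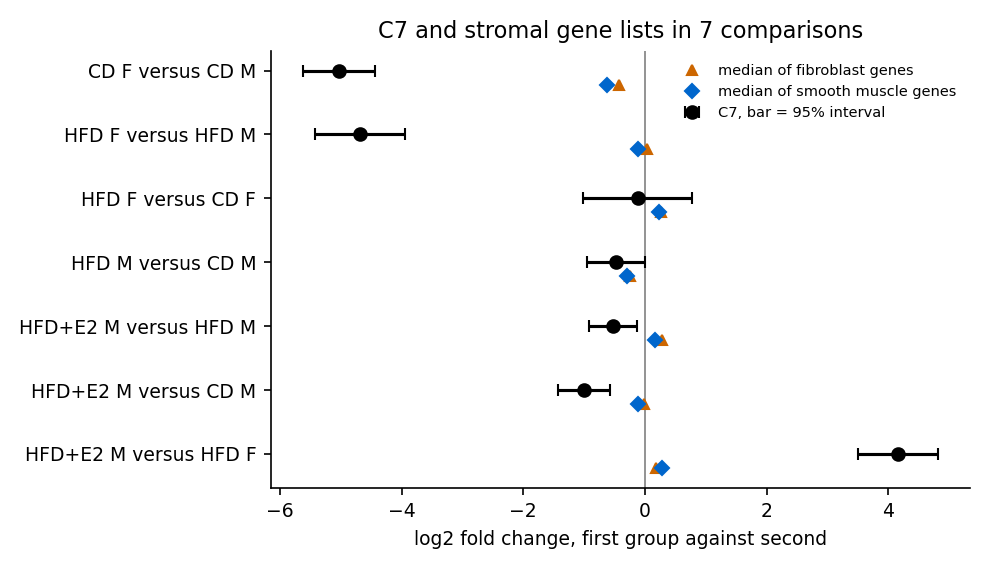
Log2 fold change of C7 from edgeR (black points, bars are 95% intervals) in 7 comparisons, with the median log2 fold change of the fibroblast list (18 genes, triangles) and the smooth muscle list (11 genes, diamonds). C7 stands at -5.03 and -4.68 in the 2 comparisons of females with males, near 0 for diet in females, and at -0.48, -0.53 and -1.003 among males; the list medians stay between -0.63 and 0.29.

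The third question was whether E2 alters C7 in HFD-fed males. C7 was lower in HFD+E2 M than in HFD M, with means of 16.2 and 23.4 CPM, a fall of 30.7%. The log2 fold change was -0.53 ± 0.19 (SE), with a 95% interval from -0.92 to -0.14. It passed the threshold of the study with an unadjusted edgeR p of 0.0109, 1 of 881 genes or 5.87% of 15010, but not the adjusted one (adjusted p = 0.455). A single gene, 0.00666% of those tested, had an adjusted p below 0.05. The exact permutation test gave p = 0.0411 on CPM, or 0.0617 adjusted over the 6 comparisons, and p = 0.0260 on the TPM of the authors. In 30 of 36 pairs the treated library was lower, and 2 of 6 treated libraries lay below every HFD M library.

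The size and call of this difference depended in part on the libraries with squamous genes. HFD M 2 and 4 had the highest C7 of the group, 29.6 and 31.1 CPM. Without them HFD M averaged 19.9 ± 4.21 CPM (SD, n = 4), and the log2 fold change became -0.29 ± 0.19 (SE), with an unadjusted edgeR p of 0.136. With either of them alone left out, as with any other single library, the call was kept, and the values ran from -0.63 to -0.43. With the squamous score as a covariate it was -0.31, with an unadjusted edgeR p of 0.106. Against CD M, which held no such library, HFD+E2 M was lower by a log2 fold change of -1.003 ± 0.20 (SE), with a 95% interval from -1.43 to -0.57. In 35 of 36 pairs the HFD+E2 M library was lower. C7 passed the threshold of the study there, as did 5.99% of 15109 genes, and its edgeR adjusted p was 0.0520, just outside the 0.212% of genes with an adjusted p below 0.05. The exact permutation test gave p = 0.00433, or 0.00866 adjusted over the 6 comparisons. HFD+E2 M differs from CD M in both diet and treatment, whose parts cannot be told apart in this comparison.

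The last question was how C7 runs with the stroma. Its level was set beside 18 fibroblast genes (collagens, Dcn, Dpt, Pdgfra and others) and 11 smooth muscle genes (Acta2, Myh11, Des and others). Between CD F and CD M, 9 of 18 fibroblast genes were lower in females at the threshold of the study, 5 of them with an edgeR adjusted p below 0.05, with a list median of -0.43 on the log2 scale against 0.01 over all genes. All 11 smooth muscle genes were lower there at that threshold, with a median of -0.63. Of them, 7 had an edgeR adjusted p below 0.05. Among all genes, 9.15% passed the threshold of the study and 2.92% had an adjusted p below 0.05. The fibroblast genes summed to 595 to 1235 TPM in CD F and 1042 to 1623 TPM in CD M. Fitted together with the fibroblast score, C7 differed between CD F and CD M by -4.33, and with the smooth muscle score -4.26. Between HFD F and HFD M, 1 of 18 fibroblast genes was higher and none lower, with a median of 0.03, and 1 of 11 smooth muscle genes was lower, with a median of -0.11, where 3.09% of all genes passed. C7 differed there by -4.75 with the fibroblast score in the fit and by -4.67 with the smooth muscle score.

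In the smaller differences among males, stroma and C7 did not always run together. From CD M to HFD M, the fibroblast median was -0.25 and the smooth muscle median -0.30, with 2 of 18 and 1 of 11 genes past the threshold, all lower, where 2.9% of all genes passed. With the fibroblast score in the fit, the diet difference of C7 was -0.30, with an unadjusted edgeR p of 0.252. With the smooth muscle score it was -0.28, with an unadjusted edgeR p of 0.273. From HFD M to HFD+E2 M, the fibroblast median was 0.28 and the smooth muscle median 0.17, opposite in sign to C7. At the threshold of the study, 2 of 18 fibroblast genes (Col6a3 and Fbln1) and 1 of 11 smooth muscle genes (Lmod1) were higher in HFD+E2 M. Among all genes 5.87% passed there, and no gene of the 2 lists had an edgeR adjusted p below 0.05. C7 was lower by 0.45 with the fibroblast score in that fit, with an unadjusted edgeR p of 0.0577. Between HFD+E2 M and CD M, where the medians were -0.02 and -0.11, C7 stayed at -1.01 with the fibroblast score and -0.90 with the smooth muscle score.

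The same question was asked animal by animal. Correlations were computed on log2 CPM as deviations from the group means over the 18 libraries of the 3 male groups, since only there every library held at least 10 reads of C7. For each list, log2 CPM was averaged over its genes to give a score. C7 and the fibroblast score had Pearson's r = 0.18 (permutation p = 0.524, adjusted over 13 lists 0.852) and Spearman's rho = 0.03 (permutation p = 0.944). Without CD M 6 and HFD M 1, farthest from the median of the score, r was -0.12. The smooth muscle score gave r = 0.22 (permutation p = 0.430, adjusted 0.832) and rho = 0.09 (permutation p = 0.774), and r = -0.12 without HFD M 4 and CD M 1. Neither relation held without its farthest libraries. The groups did not share a direction for the fibroblast score: r was 0.71 in CD M (exact permutation p = 0.0778), 0.05 in HFD M (exact permutation p = 0.864) and -0.76 in HFD+E2 M (exact permutation p = 0.0861), and Spearman's rho was 0.83, -0.09 and -0.66, with exact permutation p of 0.0583, 0.919 and 0.175. None of the 39 relations within single groups passed adjustment. Among the fibroblast genes, Dpt (r = 0.50), Dcn (r = 0.47) and Lum (r = 0.25) ran closest to C7 and Pdgfrb (r = -0.11) farthest, and among the smooth muscle genes Acta2 (0.28), Tagln (0.28) and Cnn1 (0.25) closest and Smtn (0.07) farthest. All 11 smooth muscle genes and 13 of 18 fibroblast genes had an r above 0. The median r over all autosomal genes with a mean of at least 1 TPM was 0.0057. The genes of a list are not independent of each other, and neither score passed its test.

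Of the 13 lists, B cell genes ran farthest against C7. Their r was -0.62 (permutation p = 0.0131, adjusted 0.171) and rho -0.64 (permutation p = 0.0109, adjusted 0.142), and r = -0.49 without CD M 1 and HFD M 4. All 7 genes of the list, among them Cd79a and Ms4a1, had a negative r, but they are not independent of each other. The B cell genes summed to 0.834 to 37.9 TPM over the CD M libraries, 0.153 to 50.5 TPM in HFD M and 5.25 to 38.6 TPM in HFD+E2 M. With the B cell score in the fit, C7 was lower by 0.34 in HFD M than in CD M, with an unadjusted edgeR p of 0.0939, and by 0.44 in HFD+E2 M than in HFD M, with an unadjusted edgeR p of 0.0240. Against CD M the difference of HFD+E2 M was then -0.57. The part of B cells in these differences was not tested beyond this fit. The squamous score had r = 0.49 (permutation p = 0.0545, adjusted 0.355) and rho = 0.47 (permutation p = 0.0752), and r = 0.23 without HFD M 2 and 4.

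**Figure D3:**
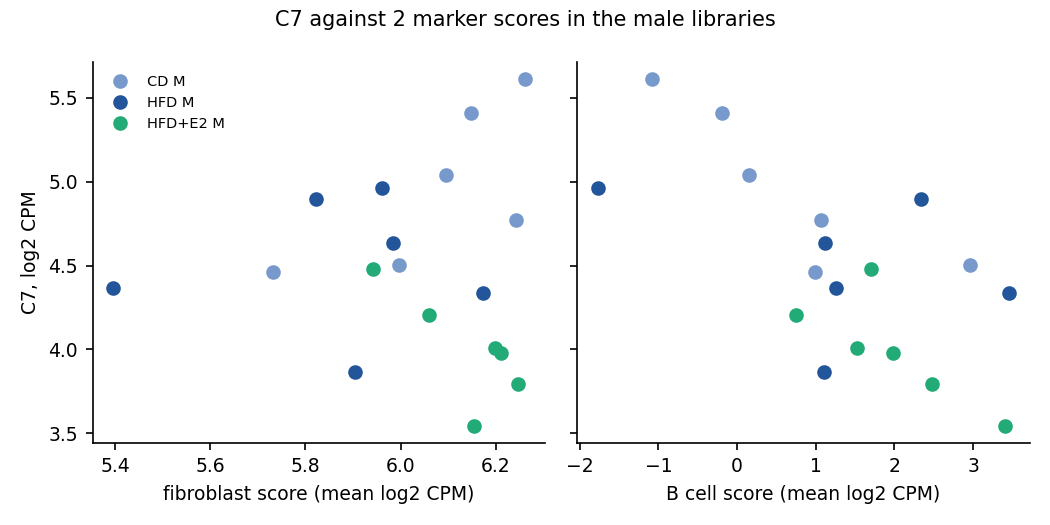
C7 (log2 CPM) against the fibroblast score (left) and the B cell score (right), each the mean log2 CPM of its list, in the 18 male libraries colored by group. The fibroblast score had r = 0.71 in CD M and -0.76 in HFD+E2 M, neither past the test, and the B cell score r = -0.62 over deviations from the group means.

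The other genes of complement were then examined by role: 51 were listed and 29 to 32 passed the filter on low counts, depending on the comparison. The partners of C7 in the membrane attack complex were nearly silent in this tissue. Hc (the mouse gene of C5), C6, C8a, C8b and C9 had group means of 0.103 TPM or less, and C8g 0.311 to 0.572 TPM. None of the 6 passed the filter, so none was tested. C6 lies 174 kb from C7 on the same chromosome. The inhibitors of the complex were expressed. Cd59a, the membrane protein that blocks its last step, had group means of 6.36 to 8.77 TPM and passed the threshold in none of the 7 comparisons. Clusterin (Clu) and vitronectin (Vtn), soluble inhibitors, were the members past the threshold between CD F and CD M, Clu higher in females by 0.95 ± 0.33 and Vtn lower by 0.98 ± 0.37 (log2, SE). Among all genes 9.15% passed there, and neither inhibitor had an edgeR adjusted p below 0.05. Each lost its call in 2 alternative fits, with values as small as 0.16 for Clu and -0.32 for Vtn.

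Upstream of C7, C3 was expressed at group means of 32.4 to 42.0 TPM, Cfb, which builds the alternative convertase, at 65.1 to 99.7 TPM, and Serping1, the inhibitor of C1, at 44.6 to 65.3 TPM. Between CD F and CD M, 14 of 30 complement genes passed the threshold of the study, 5 higher and 9 lower in females, where 9.15% of all genes passed. With the fibroblast score in the fit 3 passed, with the smooth muscle score 7, and with single libraries left out 9 to 15. Serping1 (-0.44 ± 0.12 on the log2 scale, SE), the lectin pathway ficolin Fcna (-0.78 ± 0.24), and the receptors Itgam (-0.41), C5ar1 (-0.81), Cd93 (-0.46) and C3ar1 (-0.42) were lower, and the C4b regulator C4bp (0.81 ± 0.22) was higher. None approached the size of the C7 difference, and the lowest edgeR adjusted p, that of Serping1, was 0.0584. The receptor list was mixed: of 7 tested, 4 were lower in females and 2 higher at the threshold. C3ar1 lost its call in 5 of 12 fits that left out 1 library, Cd93 and Itgam in 3 each and Serping1 in 2. Between HFD F and HFD M, 1 of 31 passed, a share near the 3.09% of all genes. It was Cfd, the protease that activates factor B, which was higher in females by 2.02 ± 0.61 (log2, SE), and by 0.66 with the call lost without the libraries with squamous genes.

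The other complement genes that passed between the E2-treated and vehicle-treated HFD males were higher, whereas C7 was lower. Between HFD+E2 M and HFD M, 6 of 30 complement genes passed the threshold, where 5.87% of all genes did, all higher. They were Cfd (1.73 ± 0.47 on the log2 scale, SE), C1qa (0.74 ± 0.29), C1qb (0.65 ± 0.22), Cfb (0.50 ± 0.20), the C3 receptor subunit Itgam (0.48 ± 0.20) and C4b (0.42 ± 0.18). C1qa and C1qb encode chains of the recognition unit of the classical pathway, but not all of its chains. The edgeR adjusted p of these 6 genes was 0.454 to 0.470. The list median was 0.14 against 0.00 over all genes, and 22 of 30 had a positive log2 fold change. Without the libraries with squamous genes 3 passed, with the fibroblast score in the fit 1 did, and with single libraries left out 3 to 10 did. C4b lost its call in 6 of 12 fits that left out 1 library, C1qa, Cfb and Itgam in 3 each, and Cfd and C1qb in none. Against HFD F, HFD+E2 M had 3 of 30 past the threshold, where 4.49% of all genes passed: Fcna (1.04), C1qb (0.51) and C3 (0.44), all higher. C1qb lost its call in 5 of 12 fits that left out 1 library and C3 in 3, and both lost it without the libraries with squamous genes (0.58 and 0.35), where 5 genes passed. Against CD M, 2 of 31 passed, Cfb (0.67) and Cfp (0.49), both higher, a share near the 5.99% of all genes. For diet in females 1 of 29 passed, near the 3.67% of all genes: Itgam, 0.49 higher in HFD F, and 0.27 with the call lost without the libraries with squamous genes, where 2 genes passed. For diet in males 2 of 30 passed, where 2.9% of all genes did, C4bp (0.79 higher in HFD M) and Cfd (lower by 1.49 in HFD M). Cfd lost its call in 8 of 12 fits that left out 1 library, with values from -2.21 to -0.96, and without the libraries with squamous genes (-1.22), where 1 gene passed.

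The receptors for sex steroids were expressed at low levels. Esr1, the gene of ERα, had group means of 1.84 to 4.31 TPM, and Esr2, the gene of ERβ, 1.04 to 1.75 TPM. None of the 4 tested receptors passed the threshold between CD F and CD M, between HFD+E2 M and HFD M, or between HFD+E2 M and CD M, where 9.15%, 5.87% and 5.99% of all genes passed. Esr2 was lower in HFD F than in HFD M (-0.62, and -0.37 with the call lost without the libraries with squamous genes) and higher in HFD M than in CD M (0.51). Esr1 (0.75) and the progesterone receptor gene Pgr (3.07) were higher in HFD F than in CD F, and lower in HFD+E2 M than in HFD F (-0.86 and -2.43). These rested on the libraries with squamous genes: without them the values of Esr1 and Pgr in HFD+E2 M against HFD F were 0.13 and 1.10, and those in HFD F against CD F were -0.24 and -0.48.

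Of the 5 named protein-coding genes on each side of C7 on chromosome 15, 8 passed the filter. None of them passed the threshold between CD F and CD M, where 9.15% of all genes did. With so few genes, this does not set the neighbours apart from genes at large. Plcxd3, at 0.309 to 1.03 TPM, was lower in HFD F than in HFD M by 1.31 ± 0.28 (log2, SE). It was higher in HFD+E2 M than in HFD F by 1.16 ± 0.33. Both differences had the direction of C7, and 3.09% and 4.49% of all genes passed there. C6 and Mroh2b were at or near 0 TPM, and Card6, Rpl37, Prkaa1, Ttc33, Ptger4, Oxct1 and AW549877 passed in none of the 7 comparisons.

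The genes most like C7 were sought among 14958 autosomal genes with a mean of at least 1 TPM, by Pearson's correlation of log2 CPM over the 30 libraries. This is a description, since any gene that differs between the sexes will rank high. Sult1e1, the estrogen sulfotransferase that inactivates estradiol, came first (r = 0.93). It had no read in any of the 12 female libraries. In CD M its lowest, median and highest libraries had 1.42, 3.04 and 6.04 TPM, in HFD M 1.52, 2.37 and 6.95 TPM, and in HFD+E2 M 0.0567, 0.833 and 4.30 TPM. In reads, these were 15 to 84, 15 to 73 and 5 to 47 per library. Next came Nid1, a basement membrane protein (r = 0.91), Dpep1 (0.83), the protease inhibitor Timp2 (0.83), Dennd5a (0.82), the protease Adamts5 (0.80), the smooth muscle actin Actg2 (0.80), Lrrn4cl (0.80), Inmt (0.79) and Fmo2 (0.79). Nid1 had reads in every library, with means of 13.5 TPM in CD F, 24.0 in CD M, 16.1 in HFD F, 22.6 in HFD M and 21.3 in HFD+E2 M.

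**Figure D4:**
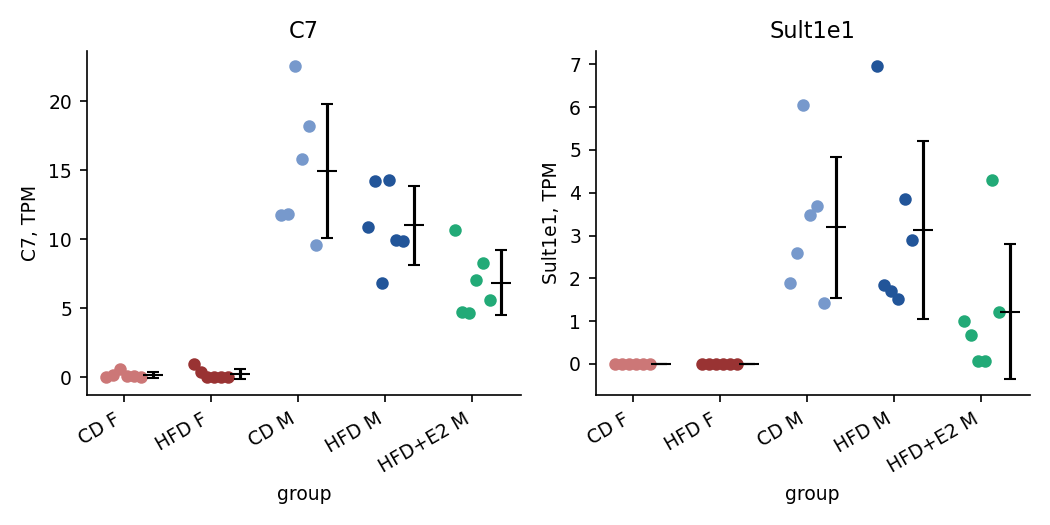
TPM of C7 (left) and of Sult1e1 (right) in each library by group, on linear axes, with the mean and SD (n = 6) beside each group. Both are at or near 0 in females; their means in CD M, HFD M and HFD+E2 M are 14.95, 11.01 and 6.83 TPM for C7 and 3.19, 3.13 and 1.22 TPM for Sult1e1, whose highest HFD+E2 M library stands at 4.30 TPM.

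When the group means were removed and only the 18 male libraries compared, other genes came closest to C7. They were the pseudogene Hmgb1-ps6 (r = 0.81), the mesenchymal transcription factor gene Prrx1 (0.78), Gm25992 (0.74), the growth factor gene Tgfa (0.67), Gm14044 (0.66), the keratin Krt23 (0.66), Gm14308 (0.66), Rpl38-ps1 (0.64), Ndnf (0.64) and Flrt2 (0.64). None of these was among the 10 over all libraries. Over the 14958 genes, 1 in 100 had an r above 0.49 in this measure.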

How the data were processed

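Total RNA from mouse colon was made into stranded, ribosomal RNA-depleted libraries and sequenced. Per the labels and the study's methods, the authors converted reads with bcl2fastq 2.19.1.403 and CASAVA, trimmed them with Trim Galore, aligned them to GRCm38 with STAR and deposited raw counts per gene from featureCounts. They also deposited TPM from StringTie, a level per transcript length with no counting depth. The same deposited StringTie tables hold FPKM and mean read coverage per gene, made by the authors from the same alignments, which were not used. The other versions are not given in the sources used here. Groups came from the sample titles, and nothing says that animals shared a litter or cage.

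Counts were scaled by TMM, filtered with filterByExpr and tested with edgeR 4.0.16 (robust quasi-likelihood, R 4.3.3) on the 12 libraries of each comparison, or 24 for the interaction, with Benjamini-Hochberg adjustment over all genes tested. CPM and log2 CPM (prior count 2) were TMM-scaled over all 30 libraries. The study counted genes at p below 0.05 with a log2 fold change beyond 0.4; p was taken as unadjusted, and adjusted values are given beside it. Beside edgeR, the log2 CPM of C7 was compared by exact permutation (two-sided), and correlations had 100000 permutations within groups or all 720 pairings of 6 libraries. Scores used list genes with a mean of at least 1 CPM. Intervals are 95% t intervals from edgeR.

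C7, the gene lists and the tests were chosen with earlier results of these data known. Named genes were list genes past the threshold of the study, at most 10 per comparison by smallest p, plus the terminal pathway, 5 neighbours on each side, the 10 most alike by 2 measures, and of the fibroblast and smooth muscle lists the 3 with the highest and the 1 with the lowest r. Xist, Ddx3y and list examples were named as checks. The test was tried on simulated counts. Alternatives were DESeq2 1.42.0, other size factors and filters, 1 fit of all libraries, a replicate block, score covariates, TPM, and leaving out each library. The B cell covariate and leaving out the 6 libraries with squamous genes were chosen after seeing the data. No protein sequence was used here. Some list genes that met the naming rule are counted in their lists but not reported here by name.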

Additional observations from a re-analysis of the deposited data

Results flagged for a closer look

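Of 90 sets of 6 libraries examined for a single distant library (18 measures in 5 groups), 8 had one by Dixon's ratio above its 95% critical value, and chance flags about 1 in 20. C7 itself was set apart once: CD F 3 had 0.609 TPM, against 0 to 0.124 TPM in the other CD F libraries, and in CPM it was not set apart. Sult1e1, the gene most like C7, had 4.30 TPM in HFD+E2 M 5, against 0.0567 to 1.22 TPM in the other treated males. Among upstream complement genes, Cfd had 6.99 TPM in HFD M 6, against 0.398 to 1.79 TPM in the rest of HFD M, and Cfb had 81.1 TPM in CD M 4 (others 58.4 to 64.8) and 111.7 TPM in HFD F 2 (others 71.1 to 85.5). CD M 1 stood above its group for Clu, with 38.3 TPM against at most 18.5. The squamous score, a mean log2 CPM, was -0.57 in CD F 1 and -1.49 in HFD+E2 M 4, high for groups in which these genes were nearly absent.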

How the results depend on the processing

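For HFD F against HFD M, C7 kept its direction and side of the threshold in every alternative run, from -3.32 to -5.83. So did HFD+E2 M against HFD F (2.69 to 5.13) and against CD M (-0.57 to -1.12). For the untested CD F against CD M, the log2 fold change moved by more than the spread between libraries to -6.25 and -3.77 on log2(TPM + 0.1) and log2(TPM + 1), and to -4.51, -4.33 and -4.26 with the B cell, fibroblast or smooth muscle score in the fit; the scales differ in pseudocount, and the cause of the others was not tested. The fall of C7 from CD M to HFD M lost its call with DESeq2's size factors (-0.47), with no filter on low counts (-0.49), with the replicate block (-0.45), on log2(TPM + 0.1) and log2(TPM + 1) (-0.42 and -0.39), and with the B cell, fibroblast or smooth muscle score (-0.34, -0.30 and -0.28). The fall from HFD M to HFD+E2 M lost it with the fibroblast score (-0.45), the squamous score (-0.31), or the squamous libraries left out (-0.29). The diet difference in females turned to 0.053 on log2(TPM + 1) and stood at -0.76 with the fibroblast score, and the interaction to -0.17 with the fibroblast score; neither was called. A minimum of 10 counts in every library removed C7 from every comparison with females. Leaving out each library gave C7 -5.22 to -4.88 (CD F against CD M), -5.08 to -4.47 (HFD F against HFD M), -0.52 to 0.084 (HFD F against CD F), -0.59 to -0.33 (HFD M against CD M), -0.63 to -0.43 (HFD+E2 M against HFD M), 3.95 to 4.56 (against HFD F), -1.11 to -0.85 (against CD M) and -0.052 to 0.56 (interaction, negative only without HFD F 1).

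Replicate numbers were not taken to pair the libraries, because in each comparison at least 1 of the 6 same-numbered pairs had deviations correlated below 0.1, and 0 to 3 of 6 libraries correlated best with their own number. The mean correlation of same-numbered pairs was still above that of other pairs in all 7 comparisons, at 0.126 to 0.378 against -0.067 to -0.014. The replicate block changed no other C7 call, and moved the complement genes past the threshold from 6 to 11 (HFD+E2 M against HFD M), from 2 to 4 (against CD M) and from 2 to 1 (HFD M against CD M).

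Counts of complement genes past the threshold moved as follows. CD F against CD M went from 14 to 3 with the fibroblast and 7 with the smooth muscle score. HFD F against CD F went from 1 to 5 with DESeq2 and with no filter, 3 in one fit of 30 libraries and with the fibroblast score, and 2 without the squamous libraries. HFD F against HFD M went from 1 to 3 with DESeq2 and with the smooth muscle score, 4 with no filter, 2 with the squamous score, and 0 with 10 counts in every library or without the squamous libraries. HFD M against CD M went from 2 to 1 with 10 counts in every library, with the fibroblast, smooth muscle or squamous score, and without the squamous libraries. HFD+E2 M against CD M went from 2 to 5 with DESeq2, the fibroblast or the smooth muscle score, 7 with no filter and 1 with the squamous score. Against HFD F it went from 3 to 5 with DESeq2 and without the squamous libraries, 7 with no filter and 1 with the fibroblast score. Against HFD M it went from 6 to 1 with the fibroblast score and 3 with the squamous score or without the squamous libraries. Leaving out each library gave 9 to 15, 1 to 4, 1 to 3, 1 to 3, 1 to 7, 2 to 5 and 3 to 10 in the same order.

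The B cell correlation with C7 lost its unadjusted call on log2(TPM + 1) (-0.41). Correlations near 0 changed sign: on log2(TPM + 1) for the adipocyte (0.12), colon epithelium (0.11), lymphatic endothelium (0.20), macrophage (0.065) and pericyte (0.26) lists, by Spearman's rho for the pericyte (0.0095) and signalling fibroblast lists (-0.029), and without the squamous libraries for the macrophage (0.0038) and signalling fibroblast lists (-0.020). Leaving out each library gave -0.23 to 0.079 (colon epithelium), -0.23 to 0.20 (lymphatic endothelium), -0.22 to 0.069 (macrophage), -0.17 to 0.079 (pericyte), -0.15 to 0.26 (signalling fibroblast), -0.51 to -0.19 (blood endothelium), -0.52 to -0.12 (interstitial cells of Cajal) and 0.41 to 0.59 (squamous epithelium). Esr1 and Pgr reversed with the squamous score, to -0.29 and -0.53 in HFD F against CD F and to 0.21 and 1.35 in HFD+E2 M against HFD F, and without the squamous libraries they turned to -0.24 and -0.48 in the first and to 0.13 and 1.10 in the second. Of 282 values of other named genes, 217 kept their call and 57 lost it.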
